A study of Homo sapiens with 6 samples.

Results

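The 10 keratin genes *KRT7*, *KRT8*, *KRT10*, *KRT15*, *KRT18*, *KRT19*, *KRT23*, *KRT80*, *KRT81* and *KRT86* were taken by their gene symbols from the 22807 genes of an expression table, and their levels were compared between cells with and without depletion of *DUSP6*, which encodes a phosphatase of ERK kinases. RNA was sequenced from MDA-MB-453 cells, an established human HER2+ breast cancer cell line, in 6 libraries. The scrambled siRNA group held 3 libraries of cells that received negative control siRNA, and the *DUSP6* siRNA group held 3 libraries of cells that received siRNA against *DUSP6*, with no drug named for either group. By the study's account the knockdown was a transient transfection with 3 different siRNAs per group, and the sources used here do not assign the siRNAs to single libraries. The effect of losing *DUSP6* and any other response to these siRNAs therefore cannot be told apart. In bulk RNA, fewer cells that express a gene and less RNA of that gene per cell cannot be told apart either. The labels do not say that the libraries came from separate cultures, so p-values measure the spread between these libraries, which may be technical. Values are given in the order of replicates 1 to 3, first for the scrambled siRNA libraries (the controls) and then for the *DUSP6* siRNA libraries (the knockdown libraries).

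Keratins build the intermediate filaments of epithelial cells. Each filament is made of pairs of an acidic type I and a basic type II keratin, and a keratin without a partner is unstable as protein. Simple epithelia such as the luminal layer of the breast are known for *KRT8* and *KRT7* of type II and *KRT18* and *KRT19* of type I. Basal and myoepithelial cells of the breast are known for *KRT5*, *KRT14* and *KRT17*, and the skin induces *KRT6* genes, *KRT16* and *KRT17* after injury. The other members are *KRT10*, a type I keratin of cornifying epidermis, *KRT15*, a type I keratin of basal keratinocytes, *KRT23* of type I, *KRT80* of type II, and *KRT81* and *KRT86*, type II keratins of hair.

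The type I members other than *KRT18* lie in the keratin cluster of chromosome 17, and the type II members lie with *KRT18* in that of chromosome 12 (RefSeq, GRCh38). *KRT19* (Entrez gene 3880) spans 41523617 to 41528308 on chromosome 17, beside *KRT15* (Entrez gene 3866) at 41513745 to 41518890. *KRT7* (Entrez gene 3855) spans 52233243 to 52255853 on chromosome 12. *KRT8* (Entrez gene 3856) spans 52897191 to 52949860 on the minus strand and overlaps *KRT18* (Entrez gene 3875), at 52948855 to 52952906 on the plus strand. The RefSeq promoter table (GRCh38.p14), which gives 250 bases before and 50 bases after a gene's start, matched 2 of the 10 members, *KRT8* and *KRT10*. The *KRT10* promoter is shown because *KRT10* was the member that rose. It lies at chr17:40822565-40822864 on the minus strand, is 37.7% G and C, and is printed 5′ to 3′ in the gene's direction, with matches to the motifs described next in capitals.

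KRT10 promoter: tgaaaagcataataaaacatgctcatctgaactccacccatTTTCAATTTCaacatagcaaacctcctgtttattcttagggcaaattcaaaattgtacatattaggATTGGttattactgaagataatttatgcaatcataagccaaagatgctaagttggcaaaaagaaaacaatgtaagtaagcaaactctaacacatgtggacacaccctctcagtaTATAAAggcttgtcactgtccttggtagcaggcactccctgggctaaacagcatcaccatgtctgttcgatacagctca

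Both strands were searched for the TATA box TATAAA, the Sp1 box GGGCGG, the CCAAT box, the AP-1 site TGANTCA, the STAT site TTCNNNGAA and the IRF site (GAAA, any 2 bases and GAAA again), which gave 3 matches that did not overlap. TATAAA began 29 bases before the start and is held by 11.5% of the 35116 promoters in the table. CCAAT, read on the opposite strand, began 143 bases before the start and is held by 34.6% of them. The IRF site, also on the opposite strand, began 209 bases before the start and is held by 3.57% of them. The table's *KRT8* window, chr12:52926420-52926719 on the minus strand, held no match to the 6 motifs. It lies inside the *KRT8* gene span and upstream of the start of its canonical GENCODE transcript, so it belongs to another *KRT8* transcript and is not printed.

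The deposited value is a normalized signal on a linear scale, the reads of a gene per 1000000 reads of the TMM-scaled library size. The recovered totals ran from 45546981 to 85729785 reads per library, so that 1 read was worth between 0.0121 and 0.0202. *DUSP6* itself had values of 209, 110 and 114 in the controls and of 39.4, 24.5 and 35.2 in the knockdown libraries. All knockdown values lay below the lowest control (log2 fold change -2.05, SE 0.25, limma adjusted p = 3.09e-04), though exons of a gene on the opposite strand cover 28.6% of its exon sequence. Fold changes were fitted with limma on log2(value + 1) over the 12862 genes whose values averaged 1 or more, with p-values adjusted by Benjamini-Hochberg over all of them, and genes were called where the adjusted p was under 0.05. The added 1 shrinks the fold change where values are low. Of these genes, 19.7% were called higher and 24.7% lower with *DUSP6* siRNA, 44.5% in either direction, and the median log2 fold change was -0.01.

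Of the 9 members that passed the filter on low values, 7 were lower and 1 was higher with *DUSP6* siRNA, against the 24.7% and 19.7% of all tested genes, and 1 was not called. The 7 lower members were the simple epithelial keratins *KRT7*, *KRT8*, *KRT18* and *KRT19* together with *KRT15*, *KRT23* and *KRT80*. *KRT10* was the higher one, *KRT81* was not called, and *KRT86* fell under the filter. No value of a *DUSP6* siRNA library lay within the scrambled siRNA range for these 7 members or for *KRT10*. Among all tested genes, 31.1% were lower and 26.7% higher without overlap between the groups.

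**Figure D1:**
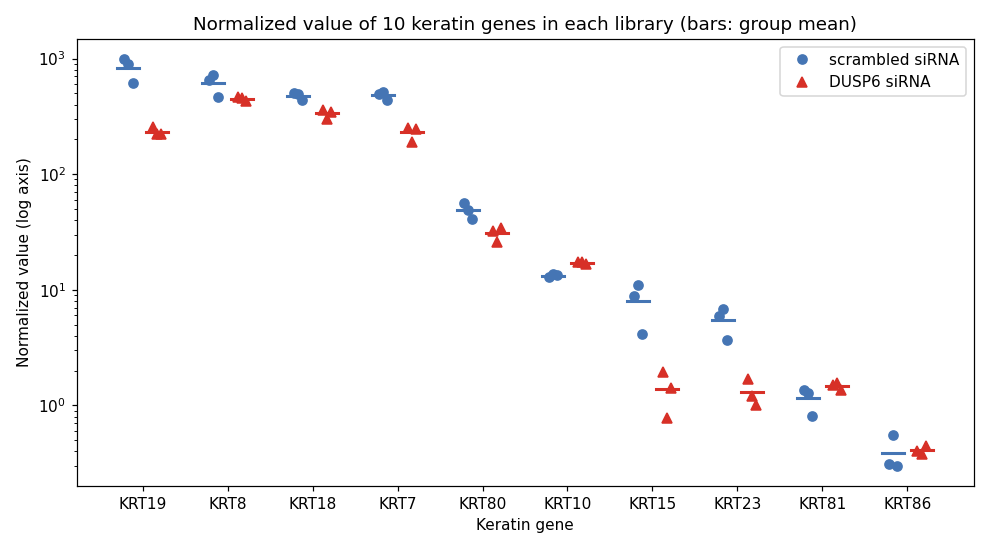
Normalized value (log axis) of each of the 10 keratin genes in the 3 scrambled siRNA libraries (circles) and the 3 *DUSP6* siRNA libraries (triangles), with bars at the group means. *KRT19* fell from a mean of 836 to 233 and *KRT10* rose from 13.2 to 17.1, while the groups overlap for *KRT81* and *KRT86*.

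*KRT19*, the smallest keratin and a marker of luminal cells, had the highest level per kb of exon of any member in each control and the largest fall of the simple epithelial keratins. Its value was 988, 901 and 618 in the controls and 255, 222 and 222 in the knockdown libraries. The *DUSP6* siRNA libraries lay close together, and the highest of them was far below scrambled siRNA replicate 3, the lowest control. The mean went down from 836 ± 193 to 233 ± 18.8 (SD, n = 3 each), which is 27.9% of the control level. The log2 fold change was -1.81 (SE 0.16, limma adjusted p = 6.49e-05).

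*KRT7* is a type II keratin of ducts and glands. It read 492, 509 and 442 in the controls and 252, 189 and 247 in the knockdown libraries, with the groups well apart and *DUSP6* siRNA replicate 2 lowest. Its mean fell from 481 ± 34.8 to 229.6 ± 35.0 (SD, n = 3 each), with a log2 fold change of -1.07 (SE 0.12, limma adjusted p = 2.36e-04). Exons on the opposite strand, most of them of *KRT7-AS*, cover 7.85% of the annotated *KRT7* exons. The default settings of the counting do not use strand, so the *KRT7* value is uncertain where they overlap, by an amount that was not measured.

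*KRT8* and *KRT18* form the founding filament pair of simple epithelia, and both had smaller log2 fold changes than *KRT19* and *KRT7*. *KRT18* had values of 500.0, 495 and 442 with scrambled siRNA and of 359, 302 and 345 with *DUSP6* siRNA, in the order of the replicates. The groups did not overlap, and the mean fell from 479 ± 32.0 to 336 ± 30.0 (SD, n = 3 each). The log2 fold change of *KRT18* was -0.51 (SE 0.10, limma adjusted p = 0.00356), and quantile normalization brought it to -0.27, still called.

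*KRT8* had values of 651, 715 and 467 in the controls and of 465, 453 and 426 in the knockdown libraries. Scrambled siRNA replicate 3 lay just above *DUSP6* siRNA replicate 1, while the other two controls were well above all *DUSP6* siRNA libraries. The mean went from 611 ± 129 to 448 ± 19.9 (SD, n = 3 each), with a log2 fold change of -0.42 (SE 0.15, limma adjusted p = 0.0448). This call was lost when any library other than scrambled siRNA replicate 3 was left out: the adjusted p was 0.126 and 0.129 without scrambled siRNA replicates 1 and 2, and 0.0890, 0.116 and 0.134 without *DUSP6* siRNA replicates 1, 2 and 3. It was also lost under quantile normalization, at -0.21 (limma adjusted p = 0.297), with edgeR on the recovered reads of the same genes (adjusted p = 0.0546), without a trend (0.0515) and without a filter (0.102).

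Annotated exons of *KRT8* and *KRT18* overlap on opposite strands over 7.63% of the *KRT8* and 17.1% of the *KRT18* exon sequence. Both values are uncertain there, by an amount that was not measured. Near-identical copies of *KRT8* exist elsewhere in the genome, which adds to the uncertainty of its value. One such copy, *KRT8P41*, had a mean value of 9.07 ± 1.37 with scrambled siRNA and 6.71 ± 0.147 with *DUSP6* siRNA (SD, n = 3 each), against 611 and 448 for *KRT8*. Its log2 fold change of -0.38 was called (limma adjusted p = 0.0377), but not without a filter (limma adjusted p = 0.0996).

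*KRT15*, *KRT23* and *KRT80*, whose levels per kb were far under that of *KRT8*, had larger falls in log2 fold change. *KRT15* had values of 8.79, 10.9 and 4.18 in the controls and of 1.94, 0.770 and 1.42 in the knockdown libraries. Its mean fell from 7.95 ± 3.43 to 1.38 ± 0.587 (SD, n = 3 each), to 17.3% of the control level, with a log2 fold change of -1.86 (SE 0.30, limma adjusted p = 0.00122). Scrambled siRNA replicate 3 was again the lowest control, at more than the highest *DUSP6* siRNA library.

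*KRT23*, a type I keratin of glandular epithelia, had values of 5.97, 6.84 and 3.65 with scrambled siRNA and of 1.68, 1.21 and 1.00 with *DUSP6* siRNA, in the order of the replicates. The groups stood apart, and the mean fell from 5.49 ± 1.65 to 1.30 ± 0.345 (SD, n = 3 each). Its log2 fold change was -1.47 (SE 0.20, limma adjusted p = 5.13e-04), and exons on the opposite strand cover 6.39% of its exon sequence. *KRT80*, a type II keratin of many epithelia, had values of 56.2, 48.6 and 40.9 with scrambled siRNA and of 32.0, 26.1 and 34.1 with *DUSP6* siRNA. Each *DUSP6* siRNA library was below each control, and the mean fell from 48.5 ± 7.66 to 30.7 ± 4.12 (SD, n = 3 each), with a log2 fold change of -0.64 (SE 0.14, limma adjusted p = 0.00624).

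*KRT10*, whose promoter is printed above, was the member that rose. Its value was 12.9, 13.6 and 13.3 in the controls and 17.3, 17.3 and 16.8 in the knockdown libraries. Both groups were narrow and they did not overlap, with a mean of 13.2 ± 0.361 against 17.1 ± 0.274 (SD, n = 3 each). The log2 fold change of 0.35 (SE 0.10, limma adjusted p = 0.0161) was smaller in size than each called fall. Without *DUSP6* siRNA replicates 1, 2 and 3 in turn the adjusted p was 0.0736, 0.0564 and 0.0677, so leaving out any of these libraries ended the call.

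Neither hair keratin was called. *KRT81* had values of 1.37, 1.28 and 0.807 with scrambled siRNA and of 1.5, 1.57 and 1.36 with *DUSP6* siRNA, and scrambled siRNA replicate 1 lay inside the *DUSP6* siRNA range. Its log2 fold change was 0.21 (SE 0.13, limma adjusted p = 0.219). *KRT86* rested on between 20 and 31 reads per library. Its values were 0.312, 0.556 and 0.301 with scrambled siRNA and 0.404, 0.379 and 0.448 with *DUSP6* siRNA, and all *DUSP6* siRNA values lay inside the control range. Without the filter its log2 fold change was 0.03 (limma adjusted p = 0.815). The coding sequences of *KRT81* and *KRT86* are near-identical, the *KRT81* span of 52285913 to 52291534 on chromosome 12 lies inside that of *KRT86* (52274645 to 52309163), and other exons cover 18.8% of the *KRT86* exon sequence, so how reads were split between them is uncertain.

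**Figure D2:**
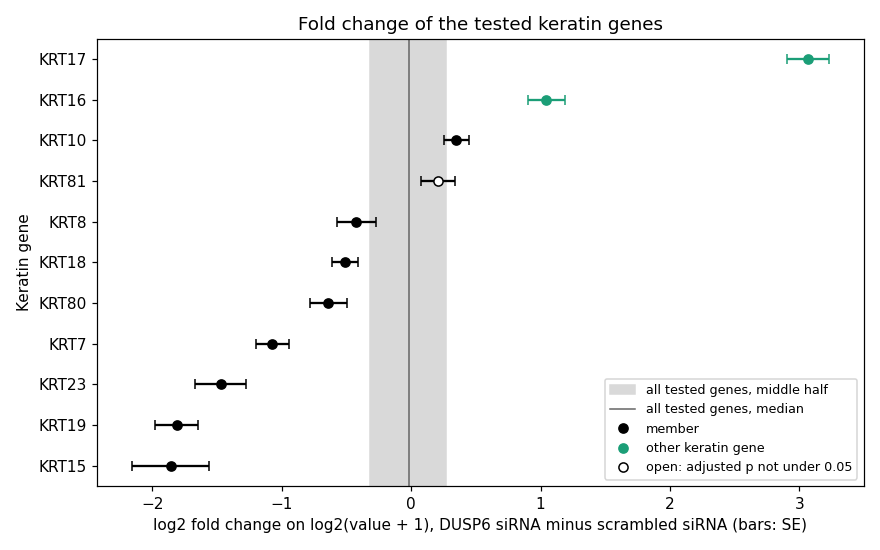
log2 fold change on log2(value + 1), *DUSP6* siRNA minus scrambled siRNA, with standard errors, for the 9 tested members (black) and the 2 other tested keratin genes (green), over the median and quartiles of all 12862 tested genes (line and grey band). The points run from -1.86 for *KRT15* to 3.06 for *KRT17*, and the open point of *KRT81* was not called.

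Levels can be compared between genes only per length, so each value was divided by the exon length of the gene's canonical GENCODE transcript in kb. With scrambled siRNA the order of mean levels per kb was *KRT19* (601 ± 139), *KRT8* (343 ± 72.2), *KRT18* (339 ± 22.7), *KRT7* (296 ± 21.4), *KRT80* (12.5 ± 1.98), *KRT10* (6.18 ± 0.168), *KRT15* (4.65 ± 2.00), *KRT23* (2.48 ± 0.746), *KRT81* (0.598 ± 0.157) and *KRT86* (0.173 ± 0.0640; SD, n = 3 each). The libraries of *KRT8* and *KRT18* overlapped in this order, as did those of *KRT18* and *KRT7*, of *KRT10* and *KRT15*, and of *KRT15* and *KRT23*. With *DUSP6* siRNA the order of mean levels per kb was *KRT8* (251 ± 11.1), *KRT18* (237 ± 21.2), *KRT19* (168 ± 13.6), *KRT7* (141 ± 21.6), *KRT10* (8.0 ± 0.128), *KRT80* (7.93 ± 1.06), *KRT15* (0.805 ± 0.343), *KRT81* (0.764 ± 0.0543), *KRT23* (0.587 ± 0.156) and *KRT86* (0.183 ± 0.0155). Here *KRT8* and *KRT18*, *KRT10* and *KRT80*, *KRT15* and *KRT81*, and *KRT81* and *KRT23* overlapped. *KRT19* thus passed from the first place, above every library of *KRT8*, to the third, below every library of *KRT18*.

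Summed over the 10 members, the level per kb was 1761, 1742 and 1313 in the controls and 873, 760.1 and 814 in the knockdown libraries. The groups did not overlap, and the difference in log2 summed level was -0.97 (two-sided exact permutation test over 20 splits, p = 0.1, the smallest that 3 libraries against 3 allow). The share of all recovered reads on the 10 members was 0.239%, 0.249% and 0.197% with scrambled siRNA and 0.151%, 0.131% and 0.140% with *DUSP6* siRNA. *KRT7*, *KRT8*, *KRT18* and *KRT19* made up 97.7% to 98.4% of the summed level in every library.

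The shares of the members in this sum are shown in the plot of keratin make-up. *KRT19* held 40.3%, 37.2% and 33.9% of it in the controls and 21.0%, 21.0% and 19.6% in the knockdown libraries. The mean share of *KRT8* was 21.2% ± 1.59 in the controls and 30.9% ± 2.19 in the knockdown libraries, and that of *KRT18* was 21.3% ± 2.16 and 29.1% ± 0.960 (SD, n = 3 each). For these 3 genes the groups did not overlap, with *KRT19* lower and the others higher after *DUSP6* siRNA (two-sided exact permutation tests, p = 0.1 each). *KRT7* held 18.6% ± 1.86 and 17.3% ± 1.74, with overlap between the groups (two-sided exact permutation test, p = 0.5). Shares of 1 sum are not independent, and *KRT8* and *KRT18* had the larger shares where their own levels were lower.

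**Figure D3:**
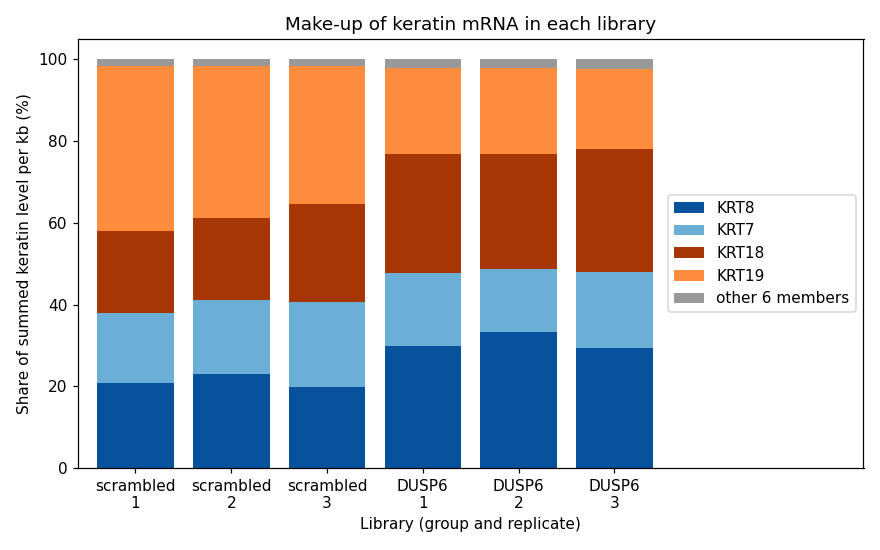
Share of the summed keratin level per kb (percent) held by *KRT8*, *KRT7*, *KRT18*, *KRT19* and the other 6 members, as stacked bars for each of the 3 scrambled siRNA and 3 *DUSP6* siRNA libraries. The *KRT19* segment lies between 33.9% and 40.3% in the controls and between 19.6% and 21.0% after *DUSP6* siRNA.

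Because filaments need both types, the levels per kb were also summed by type. Type II keratin (*KRT7*, *KRT8*, *KRT80*, *KRT81* and *KRT86*) stood to type I keratin (*KRT10*, *KRT15*, *KRT18*, *KRT19* and *KRT23*) at 0.633, 0.717 and 0.710 in the controls and at 0.951, 0.989 and 0.969 in the knockdown libraries. Type I mRNA was in excess in each control and near the type II level after *DUSP6* siRNA, without overlap. The log2 ratio was higher by 0.50 (exact two-sided permutation test, p = 0.1, again the lowest possible).

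The log2 ratio of *KRT8* to *KRT18* values was 0.38, 0.53 and 0.08 with scrambled siRNA and 0.37, 0.58 and 0.30 with *DUSP6* siRNA. The groups overlapped for this pair, with a difference of 0.09 (two-sided exact permutation test, p = 0.7). Pairs chosen after the values were seen differed more: the difference in log2 ratio was -1.30 for *KRT19* to *KRT18*, -0.65 for *KRT7* to *KRT8* and -0.74 for *KRT19* to *KRT7*, each without overlap between the groups. For *KRT81* to *KRT86* the difference was 0.26 with overlap (two-sided exact permutation test, p = 0.5). Over the 7 comparisons of the summed level and the ratios, the Benjamini-Hochberg adjusted p of the 5 without overlap was 0.14, and 3 libraries against 3 cannot reach 0.05.

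The table held 38 other keratin genes, and 2 of them passed the filter, *KRT16* and *KRT17*. Both rose. *KRT17*, a type I keratin of basal breast cells and injured skin, had values of 0.536, 1.05 and 1.04 in the controls and of 17.1, 12.1 and 14.9 in the knockdown libraries. It went from 36 to 86 reads per control library to 844 to 986 reads per *DUSP6* siRNA library, and it passed the filter through the *DUSP6* siRNA group alone, so that it had to differ to be tested. Its mean rose from 0.875 ± 0.294 to 14.7 ± 2.51 (SD, n = 3 each), a ratio of 16.8 between the means, with a log2 fold change of 3.06 (SE 0.16, limma adjusted p = 3.94e-06).

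*KRT16*, a type I keratin of injured and fast-growing epidermis, had values of 1.28, 2.03 and 1.35 with scrambled siRNA and of 4.29, 3.71 and 4.71 with *DUSP6* siRNA. Every *DUSP6* siRNA library was above every control, and the mean rose from 1.55 ± 0.415 to 4.23 ± 0.506 (SD, n = 3 each), with a log2 fold change of 1.04 (SE 0.14, limma adjusted p = 5.51e-04). *KRT14*, *KRT16* and *KRT17* have long near-identical stretches and pseudogenes, as do *KRT6A*, *KRT6B* and *KRT6C*, so reads may have been split within these families, and exons on the opposite strand cover 10.3% of the *KRT17* exon sequence.

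The other keratin genes of low value were read from the quasi-likelihood test of edgeR run on recovered reads, added after the data were seen, over the 18500 genes with at least 10 reads in all. In that test 17.4% of genes were higher and 19.0% lower, and of 20 other keratin genes 7 were higher and 3 lower. The 7 were *KRT6B*, *KRT6C*, *KRT14*, *KRT16*, *KRT17*, *KRT75* and *KRT83*, and limma without a filter called the same 7 and the same 3. *KRT14*, the basal partner of *KRT5*, had 2, 3 and 3 reads in the control libraries and 20, 23 and 25 in the *DUSP6* siRNA libraries (edgeR adjusted p = 4.66e-04). Its control reads alone fall short of the 10 reads asked for, so it passed through the *DUSP6* siRNA libraries, where it was high. *KRT6B* had mean values of 0.395 ± 0.149 and 1.30 ± 0.397 (SD, n = 3 each, edgeR adjusted p = 0.00331). *KRT5* had 39, 48 and 59 reads against 28, 33 and 37, which was not called (edgeR adjusted p = 0.168), and neither was *KRT6A* (edgeR adjusted p = 0.160). The 3 lower genes were *KRT12*, *KRT13* and *KRT32*, of which *KRT32*, a hair keratin of type I, had 54, 33 and 76 reads against 5, 11 and 6 (edgeR adjusted p = 1.19e-04). *KRT12* and *KRT13* reached 10 reads through the controls alone. At their *DUSP6* siRNA level in all libraries they would not have been tested.

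**Figure D4:**
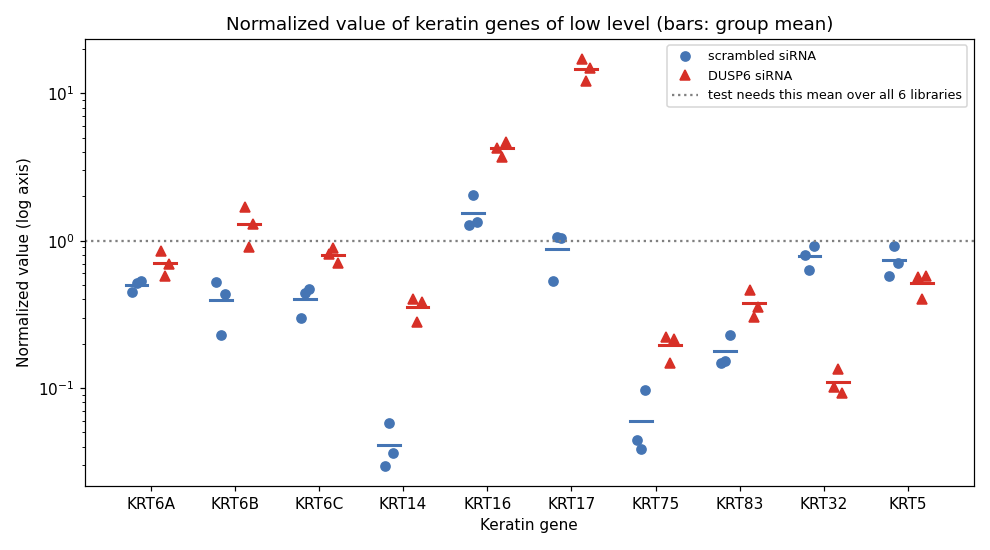
Normalized value (log axis) in the 3 scrambled siRNA libraries (circles) and the 3 *DUSP6* siRNA libraries (triangles) for keratin genes that are not members, with bars at the group means. The dotted line marks the mean over all 6 libraries that limma's filter asked for, and *KRT17* moves from at most 1.05 to at least 12.1.

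The luminal keratins had values in every library far above those of *KRT5* and *KRT14*. *KRT17*, the other basal breast keratin named above, was at most 1.05 in the controls and reached 17.1 in the knockdown libraries. The highest value over the 6 libraries was 0.920 for *KRT5*, 0.404 for *KRT14*, 0.283 for the smooth muscle actin gene *ACTA2* and 0.0149, 1 read in 1 library, for calponin *CNN1*. Some other basal breast markers were well above 0, while *SNAI2* reached 0.687 and *LAMA3* 0.587 at most. The summed value of all 13 in the list was 553 to 757 in the controls and 412 to 418 in the knockdown libraries, most of it the integrin *ITGA6*. *VIM*, the filament of mesenchymal cells, reached 0.0607 at most.

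Of 18 luminal breast markers, 16 were tested, 8 were lower and 2 higher, against 24.7% lower and 19.7% higher among all tested genes. Their median log2 fold change was -0.55, against -0.01 over all tested genes. The factors *ELF3* (-2.03, SE 0.19, limma adjusted p = 7.02e-05) and *SPDEF* (-1.05, 0.14, 4.86e-04), both of the ETS family of luminal epithelia, and the receptor *ERBB2* (-0.99, 0.11, 1.59e-04) fell most by log2 fold change. Of the higher markers, the tight junction claudin *CLDN7* rose by 0.39 on the log2 scale (SE 0.14, limma adjusted p = 0.0429). This call was lost without a filter (limma adjusted p = 0.0808) and by edgeR without a value filter (edgeR adjusted p = 0.0521). The estrogen receptor *ESR1* was at 0.110 or less in every library.

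Of 13 basal breast markers, 9 were tested, 4 were lower and 0 were higher by limma, with a median log2 fold change of -0.20. Among all tested genes 24.7% were lower, 19.7% higher and 44.5% called either way. The number called either way, 4 of 9, was near that last share and is not read as a result about these markers. At an unadjusted limma p under 0.05 the number higher was also 0. Without a value filter edgeR tested 12 of the markers and called 4 lower and 2 higher. Among all genes in that test 19.0% were lower and 17.4% higher, and the number higher was near that share. The 2 were *SNAI2*, with 9, 3 and 5 reads against 34, 54 and 41 (edgeR adjusted p = 2.05e-04), and *LAMA3*, with 3, 14 and 12 against 22, 23 and 38 (edgeR adjusted p = 0.0363). Both had too low a mean value for limma's filter. *TP63*, which encodes the p63 factor of basal epithelia, had values of 15.2, 8.14 and 6.97 with scrambled siRNA and of 1.96, 1.37 and 1.95 with *DUSP6* siRNA. It fell by 1.95 on the log2 scale (SE 0.24, limma adjusted p = 3.39e-04) in the same libraries in which *KRT17* rose. The kinase *MYLK* (-0.88, limma adjusted p = 5.08e-04) and the integrin *ITGB4* (-0.86, limma adjusted p = 0.00194), which anchors keratin at hemidesmosomes, were lower too. *MYLK* passed the filter through the controls alone. At its mean *DUSP6* siRNA value of 0.638 in all libraries it would not have been tested.

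Of 20 genes whose proteins bind or anchor keratin filaments, 17 were tested, 10 were lower and 1 was higher, against 24.7% lower and 19.7% higher among all tested genes, with a median log2 fold change of -0.45. Envoplakin *EVPL* (-0.95, SE 0.13, limma adjusted p = 5.10e-04), plakoglobin *JUP* (-0.78, 0.12, 0.00119) and epiplakin *EPPK1* (-0.74, 0.15, 0.00432) had the largest falls in log2 fold change. Desmocollin *DSC2*, a cadherin of desmosomes, rose by 0.78 on the log2 scale (SE 0.22, limma adjusted p = 0.0189), a call lost without a filter (limma adjusted p = 0.0502).

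Of 13 other intermediate filament genes, 11 were in the table, 6 were tested, 4 were lower and 0 were higher by limma, also at an unadjusted p under 0.05, beside 24.7% lower and 19.7% higher among all tested genes. Without a value filter edgeR tested 9 and called 4 lower and 0 higher, beside 19.0% and 17.4% of all genes in that test. The lower ones were nestin *NES* (log2 fold change -1.03, limma adjusted p = 4.09e-04), peripherin *PRPH* (-0.93, 0.00422), and the lamins *LMNB1* (-0.61, 0.00130) and *LMNB2* (-0.36, 0.0142), the last named outside the rule as the one left of the 4. *PRPH* passed the filter through the controls alone. At its mean *DUSP6* siRNA value of 0.676 in all libraries it would not have been tested.

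Among 29 factors known to act on keratin promoters, 25 were tested, 11 were lower and 4 higher, with a median log2 fold change of -0.18. The share higher was near the 19.7% of all tested genes, of which 24.7% were lower. Besides *ELF3* and *TP63*, the differentiation factor *CEBPA* fell by 0.92 on the log2 scale (SE 0.14, limma adjusted p = 8.97e-04). *KLF4*, a factor of epithelial differentiation, rose by 1.19 (SE 0.13, limma adjusted p = 1.46e-04), *ETS2* by 0.94 (0.22, 0.00756) and *CEBPB* by 0.51 (0.16, 0.0329). The *CEBPB* values overlapped between the groups, and its call was lost without a filter (limma adjusted p = 0.0694). The part of any of these genes in the keratin values was not tested. *IFIT1*, an interferon response gene chosen after its values were seen, had a mean of 6.99 with scrambled siRNA and 1042 with *DUSP6* siRNA (log2 fold change 7.19, limma adjusted p = 1.51e-06), and the part of that response in the keratin results was not tested.

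**Figure D5:**
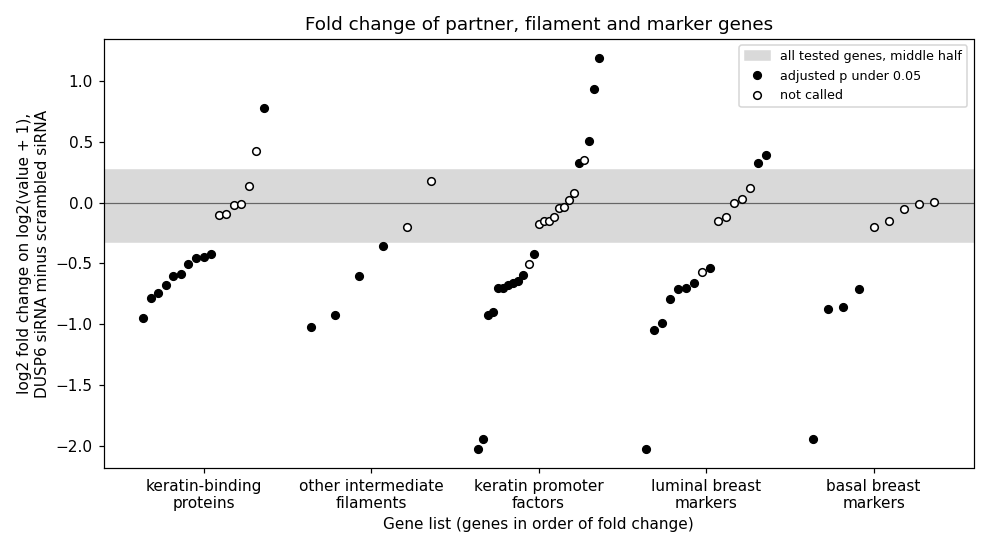
log2 fold change on log2(value + 1), *DUSP6* siRNA minus scrambled siRNA, of each tested gene in 5 lists, ordered within its list, with filled points for an adjusted p under 0.05. The grey band spans the quartiles of all tested genes, and the lists reach from -2.03 for *ELF3* to 1.19 for *KLF4*.

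Markers of other cell types were near 0, with 2 exceptions. Of 5 endothelial markers none was tested by limma, and their summed value was 0.402 to 0.479 with scrambled siRNA and 0.269 to 0.324 with *DUSP6* siRNA. Without a value filter edgeR tested 3 of them and called 1 lower and 0 higher, beside 19.0% lower and 17.4% higher among all genes in that test. Of 6 fibroblast markers in the table, *COL1A1* was tested and rose (log2 fold change 0.90, limma adjusted p = 4.21e-04), while *COL1A2*, the partner chain of the same collagen, was at 0.134 or less. The fibroblast sum, nearly all *COL1A1*, was 80.9 to 105 with scrambled siRNA and 162 to 192 with *DUSP6* siRNA. The leukocyte sum over 4 markers in the table was 4.63 to 5.65 and 3.79 to 5.75, most of it *CD68*, which was not called (limma adjusted p = 0.518), and *PTPRC*, which marks leukocytes, was at 0.0809 or less.

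The genes whose profile over the 6 libraries lay nearest to each called member were found by the root mean square difference of log2(value + 1), each gene centred on its own mean, as a description. *KRT19* was nearest to *PDZD2* (0.0563) and *SASH1* (0.0613), against a root mean square of 0.932 for *KRT19* about its own mean. For *KRT7* they were *CBR3* (0.0611) and *SEL1L3* (0.0710), and for *KRT15* they were *AGR2* (0.178) and *SH2D4A* (0.193). *KRT23* lay nearest to *TCEA3* and *MYRFL*, *KRT80* to *NBPF14* and *SCAF4*, *KRT18* to *SRRM5* and *SFPQ*, *KRT8* to *SH3BGRL3* and *NTAN1*, and *KRT10* to *H2BU1* and *RNF44*. No keratin was among these nearest genes of another.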

How the data were processed

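RNA of MDA-MB-453 cells was sequenced in 6 libraries. The authors used a stranded kit, aligned reads to hg38 and counted RefSeq genes with Rsubread under default settings, which do not use strand. The deposited table gives each gene a normalized signal in each library, not log-transformed, and no column was left unmapped (0). Each value was a whole number of reads (tolerance 1e-06) times 1 step per library, and the scaling equalled edgeR's TMM on these reads.

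limma 3.58.1 (R 4.3.3, eBayes with a trend) was run on log2(value + 1) for genes averaging at least 1, without a block, with Benjamini-Hochberg adjustment. Fits were tested on simulated data. Ratios were compared by exact permutation tests over the 20 splits. Entrez IDs were matched to RefSeq on GRCh38 (22359 of 22807), and exon lengths and overlaps came from GENCODE v44, which may differ from the models counted. The 349 genes without a symbol stayed in the fit.

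Named were all members, *DUSP6*, called keratins, up to 3 called genes per list and direction, and the 2 nearest profiles per called member. The members and lists were chosen with earlier results of these data known. Same-numbered libraries did not deviate together (correlations 0.0050, 0.0868 and -0.0764), so the main fit had no block. Whether same-numbered libraries were handled together cannot be told from this. As alternatives, the pseudocount was set to 0.1, the filter was dropped or raised to a mean of 10, and the fits were repeated with median-of-ratios scaling, quantile normalization, a replicate block, no trend, each library left out, and edgeR 4.0.16 on recovered reads (its run without a value filter was added after the data were seen). The values of 1 gene of the lists are not reported here.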

Additional observations from a re-analysis of the deposited data

How the results depend on the processing

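The falls of *KRT7*, *KRT15*, *KRT18*, *KRT19*, *KRT23* and *KRT80* and the rises of *KRT16* and *KRT17* kept direction and call wherever they were tested. *KRT17* passed the filter through the *DUSP6* siRNA group alone, so where that filter was kept it had to differ to be tested. Without a filter its log2 fold change was 3.06 (limma adjusted p = 1.66e-04). The ratios kept direction except that of *KRT8* to *KRT18*, which had no call (-0.04 without scrambled siRNA replicate 3). For *KRT8*, the log2 fold change was no longer called without a filter (-0.42), under quantile normalization (-0.21), without a trend (-0.42) and with edgeR on the same genes (-0.42), and it ran from -0.61 to -0.30 with each library left out. *KRT10* ran from 0.33 to 0.37 and lost its call without each *DUSP6* siRNA library, which left 0 members higher (0 to 1 over libraries left out, 6 to 7 lower). The summed keratin level differed by -0.74 on the log2 scale under quantile normalization and by -1.10 to -0.89 with a library left out. Other keratin genes higher numbered 7 without a filter and 7 with edgeR without a value filter, with 3 lower in each, and 0 at a mean of at least 10, where none was tested. Genes higher overall numbered 1639 at a mean of at least 10 and 1574 to 3183 with a library left out, the lowest without *DUSP6* siRNA replicate 2. Apart from the filters and left-out libraries, which change the genes or libraries tested, the cause was not tested.

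With the replicate number as a block, 2495 genes were higher and 3096 lower, 7 members lower and 1 higher, and no call on a member changed. The libraries did not all correlate best with their own number. The exact sign-flip test of the ratios over same-numbered pairs cannot go below p = 0.25.

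At this depth 1 read is worth at most 0.0202, so *KRT86* and *KRT14* rest on few reads, and 3 libraries a group limit every exact permutation test to p = 0.1.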

Other observations

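Keratin pseudogenes also carried reads. The table held 8 of them, and *KRT8P41* was tested. *KRT16P2* had 0, 7 and 3 reads in the controls and 11, 15 and 12 in the knockdown libraries. *KRT16P3* had 3, 6 and 6 reads against 13, 28 and 16, and *KRT16P1* had 4, 4 and 5 against 9, 17 and 11. These copies of *KRT16* had normalized values above the highest control in every knockdown library, as was *KRT16* itself, and whether their reads came from *KRT16* was not tested. *KRT19P2*, a copy of *KRT19*, had 8, 3 and 9 reads against 2, 2 and 4, and its normalized values overlapped between the groups. *KRT18P55*, a copy of *KRT18*, had 19, 13 and 32 reads against 25, 36 and 27. Its mean normalized value was 0.306 ± 0.0711 in the controls and 0.454 ± 0.0458 in the knockdown libraries (SD, n = 3 each), higher without overlap, while *KRT18* fell. This rise of *KRT18P55* was not called (edgeR adjusted p = 0.170). *KRT17P5* and *KRT42P* had at most 2 reads in any library.

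*KRT13*, a type I keratin of mucosal epithelia, had 15, 9 and 6 reads in the control libraries and 0, 2 and 0 in the *DUSP6* siRNA libraries (edgeR adjusted p = 0.00888), and it reached the minimum of 10 reads through the controls alone. *KRT4*, its type II partner, had 29, 24 and 4 reads against 6, 8 and 1, with overlap between the groups (edgeR adjusted p = 0.0831).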
